A study of Mus musculus with 8 samples.

Results

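The mitochondrial ribosomal protein genes are the nuclear genes whose products build the ribosome inside mitochondria. They were taken here as the gene entries whose symbol begins with Mrps or Mrpl followed by a number, which gave 76 of the 23284 entries of the deposited expression table. Of these, 29 carry a small-subunit symbol (Mrps) and 47 a large-subunit symbol (Mrpl), and no such entry carried several names. The symbols are an imperfect guide to the particle. Mrps18a and Mrps30 are now placed in the large subunit, and Mrps36 is now known as a component of the 2-oxoglutarate dehydrogenase complex.

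Expression was measured by RNA sequencing in mouse embryonic stem (ES) cells of mixed strain background, in 4 groups of 2 libraries. The groups were the transgenic clone, clone 6 with an inducible Ctcfl transgene, with 2 µg/ml doxycycline and without it, and the non-transgenic clone, clone 7, with 2 µg/ml doxycycline and without it. All cells were replated without feeder fibroblasts for 48 h, each line is a single clone, and the libraries came from 2 experiments whose biological replicates are not described further. Ctcfl, a paralog of the insulator protein Ctcf, is normally a germline gene. The authors deposited 1 FPKM value (mapped fragments relative to transcript length and library total) per gene and group, so each level below combines both libraries of a group and carries no SD, and library depth is unknown. Ctcfl itself stood at 0.995 FPKM in the transgenic clone with doxycycline against 0.403 FPKM without it, with p = 0.0062 and q = 0.296 in the authors' deposited table, and at 0.498 FPKM with doxycycline and 0.513 FPKM in its absence in the non-transgenic clone. All 8 ES cell markers looked at were detected in every group, and so were all 8 fibroblast markers, at a summed level of 224 and 222 FPKM in the transgenic clone with and without doxycycline against 168 and 172 FPKM in the non-transgenic clone.

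As background, the mitochondrial ribosome translates the few messenger RNAs of mitochondrial DNA, which encode core subunits of the respiratory chain and ATP synthase. Its RNAs come from mitochondrial DNA, while its proteins are made in the cytosol from nuclear genes and imported. Many of the proteins have bacterial counterparts, and others are specific to mitochondria. Doxycycline is a tetracycline antibiotic that binds the small subunit of bacterial ribosomes, and it can inhibit mitochondrial translation. In a system switched on with doxycycline, the drug is therefore present in every induced culture, and the non-transgenic clone shows the drug without the transgene.

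The 76 genes lay on 17 chromosomes, with at most 10 on any of them (chromosome 11), and all 76 are protein coding in the GENCODE M21 annotation. A promoter window of 300 bases, 250 before and 50 after the gene start, was found for 67 of them in RefSeq (GRCm38.p6). The windows were searched on both strands for motifs of 3 factors known to bind promoters of nuclear genes for mitochondrial proteins, and for the E-box. The motif of GABPA and other ETS factors, CCGGAAG, was present in 23 of the 67 windows (34.3%), against 18.1% of the windows of 9261 other tested genes and 11.9% of all 15660 windows. The NRF1 motif, GCGCANGCG, was present in 15 windows (22.4%), against 13.6% of other tested genes and 8.94% of all windows. The YY1 motif, AANATGGCG, was present in 10 windows (14.9%), against 5.30% of other tested genes and 3.38% of all windows. The E-box, CACGTG, was present in 5 windows (7.46%), against 10.6% and 8.28%. At least 1 of the 4 motifs was found in 42 windows (62.7%), against 38.9% of other tested genes, although the members' windows had the lower median GC content, 58% against 61.3%. These matches are descriptions of letters and do not show binding.

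**Figure D1:**
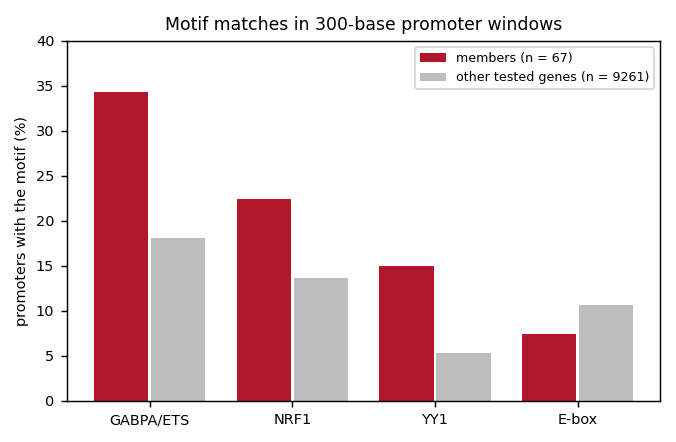
Share of 300-base promoter windows (percent) with a match to each of 4 motifs on either strand, for 67 mitochondrial ribosomal protein genes and 9261 other tested genes. The members' bars are higher for the GABPA/ETS, NRF1 and YY1 motifs and lower for the E-box.

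The 100 bases before the gene start are printed for 6 members, 5′ to 3′ on the gene's strand, with motif matches in capitals. Mrpl52 and Mrpl12 had the highest levels and carry a match in this stretch, as does Mrps18a, which is shown for a GABPA/ETS match in the forward orientation. Mrps12 shares its start region with Sars2, and Mrps24 and Mrpl55 had the largest differences between the clones. These 3 have no match in the 100-base stretch. In the full 300-base window, however, Mrps12 has a GABPA/ETS match and Mrps24 a YY1 match, while Mrpl55 has no match there either. The 6 were picked by hand and show no link of motif matches with level or with the clones. Such a link was not tested over the members. In Mrpl52 the GABPA/ETS motif is on the opposite strand, with its first printed base 47 bases before the start. In Mrps18a it is on the gene's strand, 26 bases before the start. In Mrpl12 the NRF1 motif is on the opposite strand, 80 bases before the start.
Mrpl52, chr14:54426809-54426908, plus strand: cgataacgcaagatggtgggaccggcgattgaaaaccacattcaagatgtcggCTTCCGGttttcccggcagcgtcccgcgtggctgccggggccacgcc
Mrps18a, chr17:46110904-46111003, plus strand: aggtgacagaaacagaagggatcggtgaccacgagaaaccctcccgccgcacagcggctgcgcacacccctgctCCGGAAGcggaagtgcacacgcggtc
Mrpl12, chr11:120484537-120484636, plus strand: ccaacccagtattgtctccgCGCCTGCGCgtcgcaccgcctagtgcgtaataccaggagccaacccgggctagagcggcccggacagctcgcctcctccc
Mrps12, chr7:28741822-28741921, minus strand: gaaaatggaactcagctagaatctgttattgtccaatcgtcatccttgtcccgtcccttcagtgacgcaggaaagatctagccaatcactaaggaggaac
Mrps24, chr11:5707702-5707801, minus strand: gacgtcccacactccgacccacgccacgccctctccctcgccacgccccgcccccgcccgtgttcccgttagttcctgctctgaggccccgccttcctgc
Mrpl55, chr11:59202386-59202485, plus strand: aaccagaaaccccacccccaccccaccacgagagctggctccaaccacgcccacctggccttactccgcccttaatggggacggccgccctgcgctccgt

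Several members begin close to a gene on the other strand. Of the 76, 22 (28.9%) lay head to head with another protein-coding gene, with the starts within 1000 bases, against 1113 of 11409 other tested protein-coding genes (9.76%). Mrps11 and Mrpl46, a small- and a large-subunit gene on chromosome 7, face each other across 42 bases. Mrps12 begins 187 bases from Sars2, which encodes the mitochondrial seryl-tRNA synthetase, and Mrpl47 begins 308 bases from Ndufb5, a subunit of respiratory complex I. Mrpl49 begins 137 bases from Fau, which encodes a cytosolic ribosomal protein. Levels of such neighbours could lie far apart. Fau stood at 1763 and 1783 FPKM in the transgenic clone with and without doxycycline and at 1603 and 1663 FPKM in the non-transgenic clone, while Mrpl49 stood at 35.2 and 38.4 FPKM and at 40.1 and 38.04 FPKM in the same groups. None of the 22 partners was called in any of the 4 comparisons, where 0% to 1.52% of all tested genes were. Tmem63b, the partner of Mrpl14, was the only 1 of them with an unadjusted p under 0.05. It had p = 0.0458 between the clones with doxycycline in the authors' deposited table, where 7.9% of all tested genes had a p under 0.05.

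All 76 genes were expressed in all 4 groups. Their FPKM summed to 4630 in the transgenic clone with doxycycline and 4722 without it, and to 4827 in the non-transgenic clone with doxycycline and 4920 without it. These sums were 0.634%, 0.640%, 0.669% and 0.685% of all FPKM in the same 4 groups. The members' median level was 45.2, 44.8, 48.9 and 50.9 FPKM in that order. Single genes ranged from 6.01 to 276 FPKM in the transgenic clone with doxycycline and from 5.75 to 281 FPKM in the non-transgenic clone without it. The order of the genes by level was nearly the same everywhere, with Spearman correlations between groups of 0.979 to 0.993 across the 76 genes, a description in which every group shares the same gene models.

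**Figure D2:**
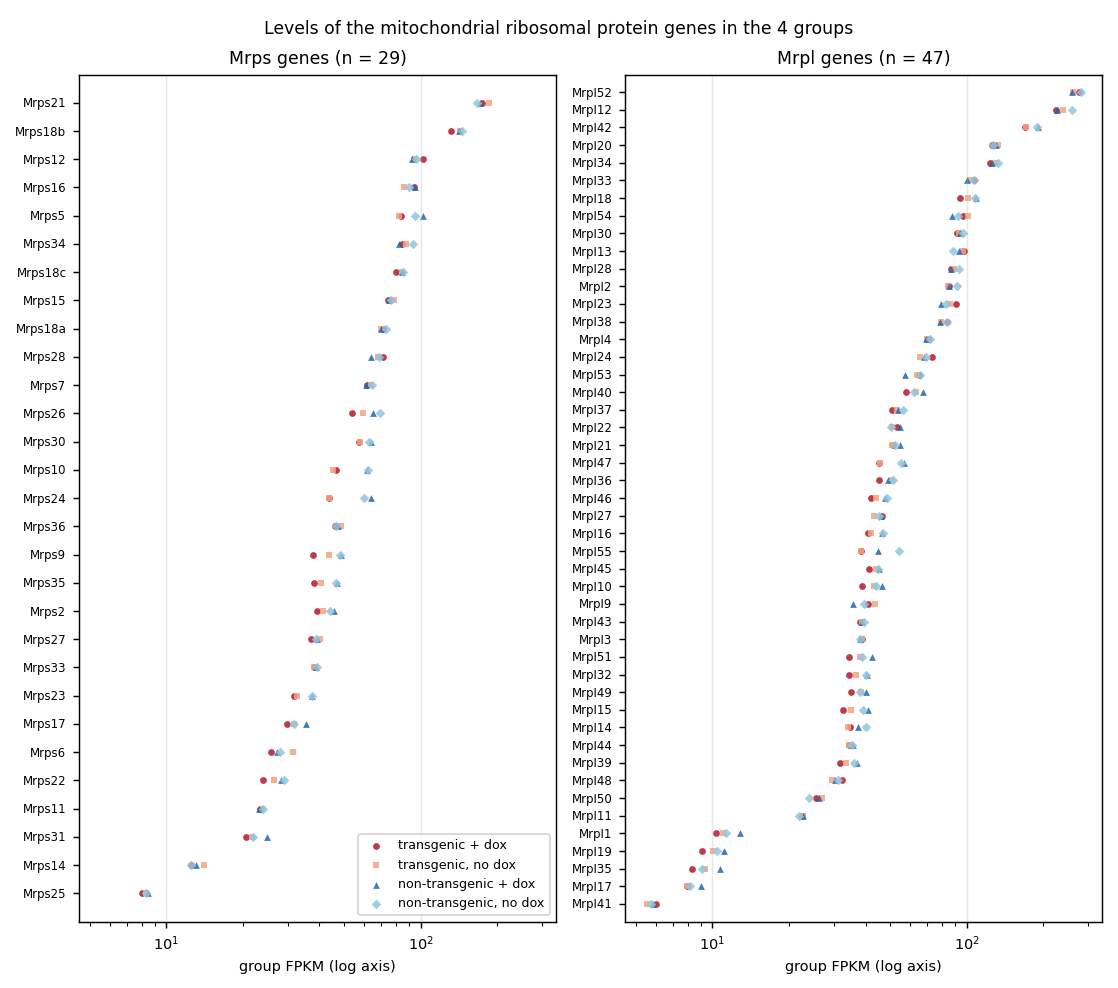
Group FPKM (log axis) of the 29 Mrps and 47 Mrpl genes, ordered by mean level, with 1 point per group and no error bars because 1 value per group was deposited. The 4 points of a gene lie close together while the genes span 5.77 to 269 FPKM in their means.

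Among small-subunit symbols, Mrps21, a counterpart of a bacterial protein, was highest. It had 174 FPKM in the transgenic clone with doxycycline and 185 FPKM in its absence, and 171 FPKM in the non-transgenic clone with doxycycline and 167 FPKM in its absence. Mrps18b, a paralog of Mrps18a and Mrps18c, followed at 131, 142, 142 and 145 FPKM in the same order of groups. Mrps12, whose bacterial counterpart sits at the decoding centre, had 102, 94.7, 92.6 and 95.9 FPKM. The lowest was Mrps25, at 8.02, 8.32, 8.48 and 8.30 FPKM, followed by Mrps14 at 12.5, 14.1, 13.1 and 12.5 FPKM. Neighbours in this order, such as Mrps12 and Mrps16, exchanged places between groups.

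Among large-subunit symbols, Mrpl52, a mitochondria-specific protein, was highest, with 276 and 262 FPKM in the transgenic clone with and without doxycycline and 259 and 281 FPKM in the non-transgenic clone. Mrpl12, which forms the stalk of the large subunit with Mrpl10, had 224 and 239 FPKM in the transgenic clone and 226 and 259 FPKM in the non-transgenic clone. Mrpl42 and Mrpl20 came next. Mrpl42, also specific to mitochondria, had 170 and 171 FPKM in the transgenic clone and 191 and 190 FPKM in the non-transgenic clone. Mrpl20 had 126 and 133 FPKM in the transgenic clone and 131 and 127 FPKM in the non-transgenic clone. Mrpl10 was far lower, at 38.8 and 43.3 FPKM in the transgenic clone and 46.6 and 43.9 FPKM in the non-transgenic clone. The lowest member of all was Mrpl41, at 6.01 and 5.52 FPKM in the transgenic clone and 5.82 and 5.75 FPKM in the non-transgenic clone. Its deposited locus overlaps Wdr85, and its level is uncertain for that reason. Across the 76 genes, level ran against transcript length (Spearman -0.55, with lengths of 418 to 7300 bases), a description in which FPKM already divides by a length.

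Other proteins of known place in the particle lay at middle levels. Values here are in the order transgenic with and without doxycycline, then non-transgenic with and without it. In the small subunit, Mrps5, near the messenger RNA entry site, had 83.5, 82.5, 101.8 and 94.7 FPKM, and Mrps7, in the head, had 61.5, 63.8, 61.3 and 64.6 FPKM. Mrps5 was thus lower in both transgenic groups, and Mrps7 was not. Near the catalytic centre of the large subunit, Mrpl2 had 84.9, 84.1, 85.4 and 91.9 FPKM, Mrpl16 had 40.8, 42.1, 46.2 and 46.7 FPKM, and Mrpl27 had 46.3, 43.3, 46.2 and 45.3 FPKM. Mrpl11, at the base of the stalk, had 22.5, 22.6, 22.8 and 21.9 FPKM. Mrpl4, which reaches the peptide tunnel, had 70.3, 69.5, 68.9 and 71.7 FPKM, and Mrpl45, which faces the inner membrane at the tunnel exit, had 41.2, 44.2, 45.2 and 44.8 FPKM. Mrpl44, which resembles a ribonuclease, had 34.5, 34.5, 35.7 and 35.4 FPKM. Among further small-subunit genes with a bacterial counterpart, Mrps2 had 39.1, 41.3, 45.5 and 44.04 FPKM, Mrps15 had 74.4, 78.5, 74.9 and 76.7 FPKM, and Mrps28 had 71.05, 68.01, 64.01 and 68.5 FPKM. The mitochondria-specific Mrps34 had 84.3, 87.6, 82.1 and 93.3 FPKM, and Mrps35 had 38.3, 40.4, 47.02 and 46.6 FPKM. In the large subunit, Mrpl33, which has a bacterial counterpart, had 106.6, 103.1, 100.2 and 106.9 FPKM. The mitochondria-specific Mrpl37 had 50.8, 53.2, 53.7 and 56.1 FPKM, and Mrpl38 had 83.3, 79.4, 78.5 and 83.4 FPKM. Of these 8 genes, Mrps2, Mrps35 and Mrpl37 had both transgenic values below both non-transgenic values. The 8 were named for their place or class, and this order was not counted over all members or other tested genes. It can therefore not be read as a trait of the members.

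The spread of each gene over the 4 groups was small. The highest group value over the lowest had a median of 1.12 over the members and a range of 1.02 to 1.46. It was under 1.25 for 68 of 76 members (89.5%) and over 1.5 for 0, while it was under 1.25 for 73.8% of the 7703 other genes in the members' FPKM range and over 1.5 for 8.67% of them. Mrpl3, whose bacterial counterpart lies near the catalytic centre, varied least, at 38.8 and 38.7 FPKM in the transgenic clone with and without doxycycline and 38.1 FPKM in both non-transgenic groups. The ratio had a median of 1.08 over 79 cytosolic ribosomal protein genes and of 1.10 over 76 nuclear genes for respiratory chain subunits. These medians were lower than that of the members, but 3 genes of each list (3.80% and 3.95%) were over 1.5. The transgenic clone with doxycycline held the lowest of the 4 values for 42 of the 76 members (55.3%), against 30.7% of the 7703 other genes in the members' FPKM range. It held the highest for 9 members (11.8%), against 25.5% of these other genes. The same values enter this clone's doxycycline ratios, the ratios of the clones with doxycycline and the difference of the responses, all given below. Shares of members below 0 in these are therefore not separate observations.

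The first comparison was doxycycline against no doxycycline in the transgenic clone. No member was called, that is, had a deposited q under 0.05, and none had an unadjusted deposited p under 0.05. Over all 13003 genes tested, 0.108% were called and 1.08% had an unadjusted p under 0.05, so 76 genes with no call do not stand out from that background. On the scale of log2 of (FPKM + 1), the members' ratios had a median of -0.05 and ran from -0.29 to 0.15, against a median of 0.00 over all tested genes. A ratio below 0 was found for 52 members (68.4%), against 49.9% of all tested genes and 49.96% of the 7732 non-members in the same FPKM range. Ratios within 0.2 of 0 were found for 74 members (97.4%), against 89.3% of these non-members.

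The lowest ratio was that of Mrps6, with 25.7 FPKM with doxycycline against 31.5 FPKM without it, within the transgenic clone, a fold of 0.815 with p = 0.366 in the authors' deposited table. Its locus overlaps Slc5a3, so reads of the 2 genes may be shared. Mrps9, a protein of the head of the small subunit, had 37.6 FPKM with doxycycline against 43.8 FPKM without it, and its p of 0.304 was the smallest of any member in this comparison in the authors' deposited table. The next lowest was Mrpl36, at 45.3 FPKM with doxycycline against 50.8 FPKM without it. The 3 highest ratios were those of Mrpl24, Mrps16 and Mrpl48. Mrpl24, at the exit of the peptide tunnel, had 72.9 FPKM with doxycycline against 65.7 FPKM without it, and Mrps16 had 94.6 FPKM against 85.9 FPKM. Mrpl48 had 32.2 FPKM with doxycycline against 29.6 FPKM without it, and it is among the 3 members with a named pseudogene, so its counting is uncertain.

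By class, all 10 mitochondria-specific small-subunit members had a ratio below 0 in this comparison, with a median of -0.08 and a smallest deposited p of 0.540 in the authors' deposited table. They include Mrps22, at 23.9 FPKM with doxycycline against 26.4 FPKM without it, and Mrps26, at 53.6 FPKM against 59.2 FPKM. Of the 16 bacterial-type small-subunit members, 10 were below 0 (median -0.06). Of the large-subunit members, 17 of 29 bacterial-type genes (median -0.03) and 14 of 20 mitochondria-specific genes (median -0.03) were below 0. Mrps36 was put in no class and had 46.3 FPKM with doxycycline against 48.8 FPKM without it. None of these classes held a gene that passed the test.

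The precision limits what these values can show. A standard error was taken as the log2 ratio over the deposited test statistic, which gave a median of 0.25 over the members on the log2 scale, and an approximate 95% interval was set from it. In the transgenic clone with doxycycline against without it, the interval lay within a 2-fold change either way for 71 of 76 members and within a 1.5-fold change for 42. The 5 members outside the first bound include Mrps6, with a log2 ratio of FPKM of -0.29 and an interval of -1.22 to 0.63. A shift of the size seen in the median is thus below what 2 libraries a group can resolve for any of these genes.

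In the non-transgenic clone, which received the drug but carries no transgene, no member was called and none had an unadjusted p under 0.05. Of all 12908 genes tested there, 0% were called and 0.108% had an unadjusted p under 0.05. The members' median ratio was 0.00 (range -0.27 to 0.21), against 0.02 over all tested genes, and its sign changes when it is centred on all tested genes (-0.02). A ratio below 0 was found for 37 members (48.7%), against 42.3% of all tested genes. The interval lay within a 2-fold change either way for 71 of 76 members and within a 1.5-fold change for 37.

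Mrpl55 had the lowest ratio in the non-transgenic clone, at 44.7 FPKM with doxycycline against 54.0 FPKM without it, a fold of 0.828 with p = 0.317 in the authors' deposited table. Next came Mrpl53, at 57.2 FPKM with doxycycline against 65.7 FPKM without it, whose locus overlaps Ccdc142, and Mrpl12, at 226 FPKM against 259 FPKM. At the other end, Mrpl35 had 10.7 FPKM with doxycycline against 9.11 FPKM without it, and Mrps31 had 24.9 FPKM against 21.98 FPKM. Mrpl1, a protein of the stalk at the tRNA exit site, had 12.8 FPKM with doxycycline against 11.3 FPKM without it. None of these 6 genes was among the 3 highest or 3 lowest of the transgenic clone. With only 6 of 76 genes taken in each clone, this lack of overlap does not show a difference between the clones. Mrpl55 stood at 38.5 FPKM with doxycycline against 38.4 FPKM without it, within the transgenic clone, and Mrps6 stood at 27.2 FPKM with doxycycline against 27.9 FPKM without it, within the non-transgenic clone.

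**Figure D3:**
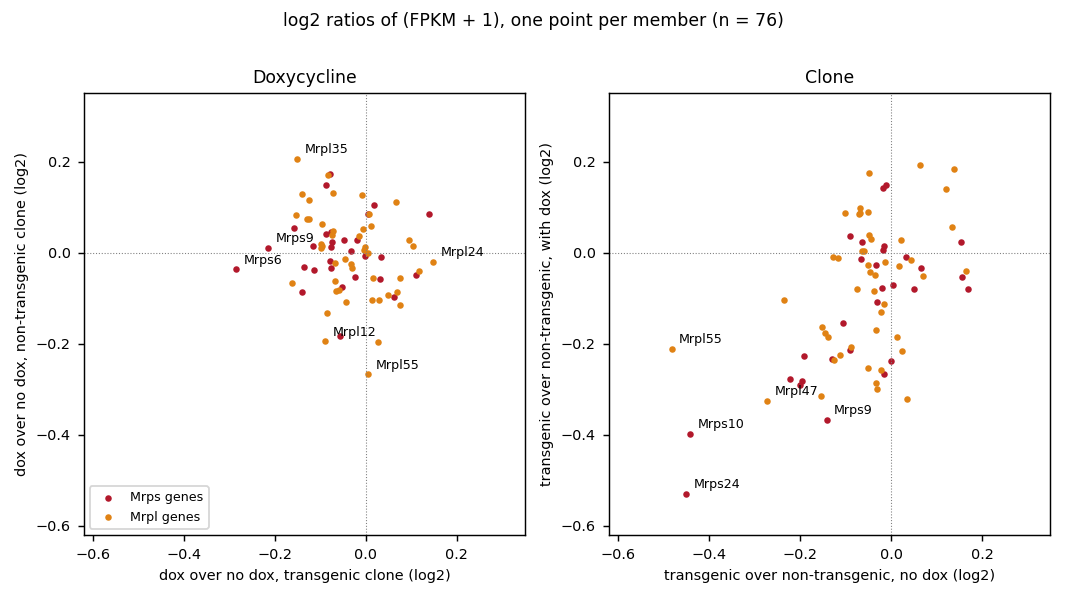
Log2 ratios of (FPKM + 1) for each of the 76 members, doxycycline over no doxycycline in the transgenic (x) and non-transgenic (y) clone at left, and transgenic over non-transgenic clone without (x) and with (y) doxycycline at right. The doxycycline ratios cluster around 0 with no shared order, while Mrps24 and Mrps10 are low in both comparisons of the clones.

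Across the 76 genes the doxycycline ratios of the clones were not alike in order (Spearman -0.26, Pearson -0.20), where 7703 non-members of the same FPKM range had a Spearman correlation of 0.14. These are descriptions over genes measured in the same libraries. Below 0 in both clones were 21 members and above 0 in both were 8, while 31 were below 0 in the transgenic and above 0 in the non-transgenic clone and 16 the reverse. No such counts were made over other genes, so these have no background to be read against. The difference of the responses was tested for each gene with a normal test over 12638 genes, of which 0.142% had an adjusted p under 0.05 and 0.459% an unadjusted p under 0.05. Of the members, 0 had an adjusted p and 0 an unadjusted p under 0.05. The smallest unadjusted p was 0.216, for Mrpl52, in this normal test on the deposited fold changes. That value rests on standard errors taken from the deposited statistic. The response of the transgenic minus that of the non-transgenic clone had a median of -0.05 over the members, against -0.02 over all genes, and was below 0 for 47 members (61.8%), against 53.9% of all genes. The median standard error of this difference was 0.37 on the log2 scale, so the test could resolve only large differences.

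The transgene and other differences between the clones cannot be told apart here, since each state is 1 clone. In bulk samples, fewer cells of a type and less RNA per cell cannot be told apart either. Without doxycycline, transgenic against non-transgenic, no member was called, and 2 members had an unadjusted p under 0.05, both lower in the transgenic clone. Of all 13047 genes tested, 1.37% were called and 6.59% had an unadjusted p under 0.05, so 2 of 76 is below that background. The members' ratios had a median of -0.04 (range -0.48 to 0.17), against 0.00 over all tested genes, and 57 members (75.0%) were below 0, against 50.2% of all tested genes and 52.1% of non-members in the same FPKM range. Ratios within 0.2 of 0 were found for 69 members (90.8%), against 75.6% of these non-members.

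With doxycycline, transgenic against non-transgenic, again no member was called, and 1 had an unadjusted p under 0.05. Of all 13064 genes tested, 1.52% were called and 7.9% had an unadjusted p under 0.05. The members' median ratio was -0.07 (range -0.53 to 0.19), against -0.02 over all tested genes. A ratio below 0 was found for 54 members (71.1%), against 53.7% of all tested genes and 56.0% of non-members in the same range. Ratios within 0.2 of 0 were found for 53 members (69.7%), close to the 68.2% of these non-members. Members lower in both comparisons of the clones numbered 41, members higher in both 6 and members of opposite sign 29. These counts were not made over other genes, so they do not show a trait of the members. The ratios of the 2 comparisons had a Spearman correlation of 0.40 over the members and 0.68 over the non-members.

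**Figure D4:**
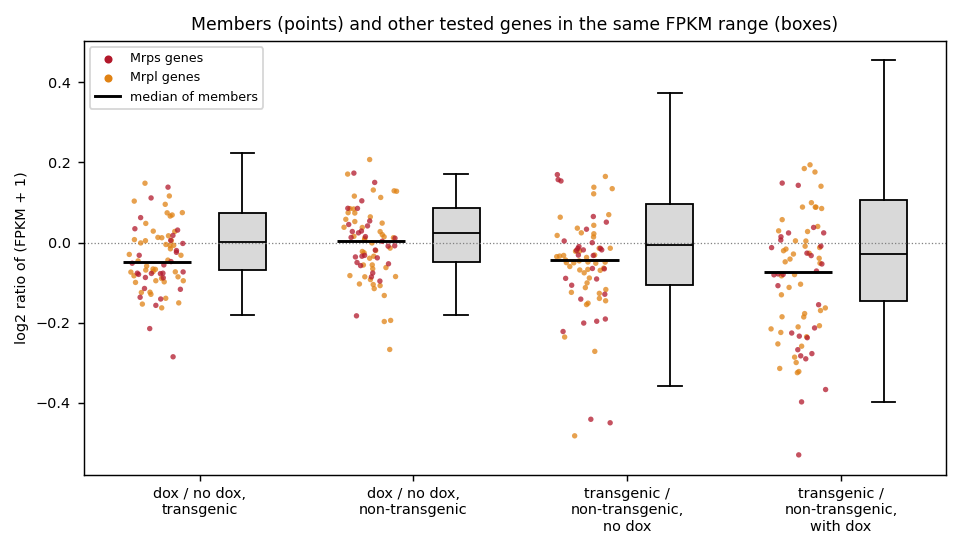
Log2 ratios of (FPKM + 1) of the 76 members (points; the horizontal bar is their median) beside the other tested genes in the members' FPKM range (boxes show the quartiles, whiskers the 5th and 95th percentiles), for the 4 comparisons. Most points lie within 0.2 of 0, and the lowest points, Mrps24, Mrps10 and Mrpl55, are in the comparisons of the clones.

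Mrps24, the counterpart of a bacterial small-subunit protein at the messenger RNA entry site, had the largest difference. It had 43.7 FPKM with doxycycline and 43.6 FPKM in its absence in the transgenic clone, against 63.6 FPKM with doxycycline and 59.9 FPKM in its absence in the non-transgenic clone. Both values of the transgenic clone were lower than both values of the non-transgenic clone, and the fold of doxycycline over no doxycycline was 1.00 in transgenic and 1.06 in non-transgenic cells. In the authors' deposited table the fold of the transgenic over the non-transgenic clone was 0.728 without doxycycline (p = 0.0397, q = 0.862) and 0.688 with it (p = 0.0259, q = 0.691). The gene lies on chromosome 11 (mm10, chr11:5703983-5707699, minus strand) and spans 4 exons in the annotation.

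Mrps10, in the head of the small subunit, showed the same order. It had 46.5 FPKM with doxycycline and 45.4 FPKM in its absence in the transgenic clone, against 61.6 FPKM with doxycycline and 61.98 FPKM in its absence in the non-transgenic clone. Its fold of the transgenic over the non-transgenic clone was 0.732 without doxycycline (p = 0.0433, q = 0.901) and 0.755 with it (p = 0.0963, q = 0.9996) in the authors' deposited table. It lies on the plus strand at chr17:47368887-47378679 (mm10) with 7 annotated exons.

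Mrpl55, a large-subunit protein, had its largest difference without doxycycline. It had 38.5 FPKM with doxycycline and 38.4 FPKM in its absence in the transgenic clone, against 44.7 FPKM with doxycycline and 54.0 FPKM in its absence in the non-transgenic clone. The fold of the transgenic over the non-transgenic clone without doxycycline was 0.711, the lowest of any member in that comparison, with p = 0.0537 in the authors' deposited table. Its log2 ratio of FPKM was -0.49 with an approximate 95% interval of -0.94 to -0.05, the only member interval in the 4 comparisons that did not hold 0. This ratio and its low doxycycline ratio in the non-transgenic clone rest on the same value, that of the non-transgenic clone without doxycycline, which is the highest of the 4. The intervals of Mrps24 (-0.99 to 0.07) and Mrps10 (-1.05 to 0.15) held 0 although their deposited p was under 0.05, so interval and deposited p do not give the same calls and neither passed the adjustment.

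The other low members of the clones' comparison with doxycycline included Mrps9, at 37.6 FPKM in the transgenic against 48.8 FPKM in the non-transgenic clone. Mrpl23 had the highest ratio there, at 90.9 FPKM in the transgenic against 79.4 FPKM in the non-transgenic clone, and it has a named pseudogene. Mrpl9 followed at 40.8 FPKM against 35.8 FPKM and Mrpl53 at 64.7 FPKM against 57.2 FPKM. Without doxycycline the highest ratios were those of Mrps6, at 31.5 FPKM in the transgenic against 27.9 FPKM in the non-transgenic clone, Mrpl50, at 27.0 FPKM against 23.9 FPKM, and Mrps14, at 14.1 FPKM against 12.5 FPKM. The value of Mrps6 in the transgenic clone without doxycycline, the highest of its 4, also underlies its low doxycycline ratio in that clone. None of these differences passed the test. The mitochondria-specific small-subunit members had the lowest class median with doxycycline, -0.17, with 9 of 10 below 0. This ratio and the doxycycline ratio of the same class in the transgenic clone share the values of the transgenic clone with doxycycline. They are therefore not separate observations. The remaining class medians with doxycycline were -0.07 for bacterial-type small-subunit, -0.04 for bacterial-type large-subunit and -0.06 for mitochondria-specific large-subunit genes. Without doxycycline, the median was -0.061 for mitochondria-specific small-subunit and -0.057 for mitochondria-specific large-subunit genes. It was -0.018 for bacterial-type small-subunit and -0.046 for bacterial-type large-subunit genes. Nanog and Zfp42 were called higher and Sox2 lower in the transgenic clone in both comparisons of the clones, and fibroblast markers summed higher there (above). Most of the difference in that sum lay in Col1a1, a collagen gene, at 139.6 and 131.6 FPKM in the transgenic clone with and without doxycycline against 86.8 and 92.8 FPKM in the non-transgenic clone. Of the 7 tested fibroblast markers, 6 had a ratio of the transgenic over the non-transgenic clone above 0 without doxycycline and 5 with it. Col1a2 had 41.8 and 45.1 FPKM in the transgenic clone with and without doxycycline, against 38.9 and 37.8 FPKM in the non-transgenic clone. In the same order, Fbn1 had 4.98 and 4.96 FPKM against 3.43 and 3.73 FPKM. Thy1 had 25.3 and 25.7 FPKM in the transgenic clone against 26.9 and 25.9 FPKM in the non-transgenic clone. The part of these differences in the members' values was not tested.

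The rest of the mitochondrial translation machinery was described with gene lists. Of 7 mitochondrial ribosome proteins with other symbols, 13 translation factors, 19 aminoacyl-tRNA synthetases and 23 genes for ribosome assembly and ribosomal RNA modification, none was called in any of the 4 comparisons and none had an unadjusted deposited p under 0.05. Over all tested genes, 0% to 1.52% were called, depending on the comparison, and 0.108% to 7.9% had such a p. Chchd1, a small-subunit protein, had 132 and 130 FPKM in the transgenic clone with and without doxycycline, against 117 and 119 FPKM in the non-transgenic clone. Tufm, the elongation factor that brings tRNA to the mitochondrial ribosome, had 92.4 and 102 FPKM in the transgenic clone, against 90.8 and 95.4 FPKM in the non-transgenic clone. Their median ratios in the transgenic clone with doxycycline against without it were -0.04, -0.03, 0.01 and -0.04 in the order of the lists. Between the clones with doxycycline the same medians were -0.07, -0.10, -0.08 and -0.10, beside -0.07 for the Mrps and Mrpl genes and -0.02 over all tested genes.

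**Figure D5:**
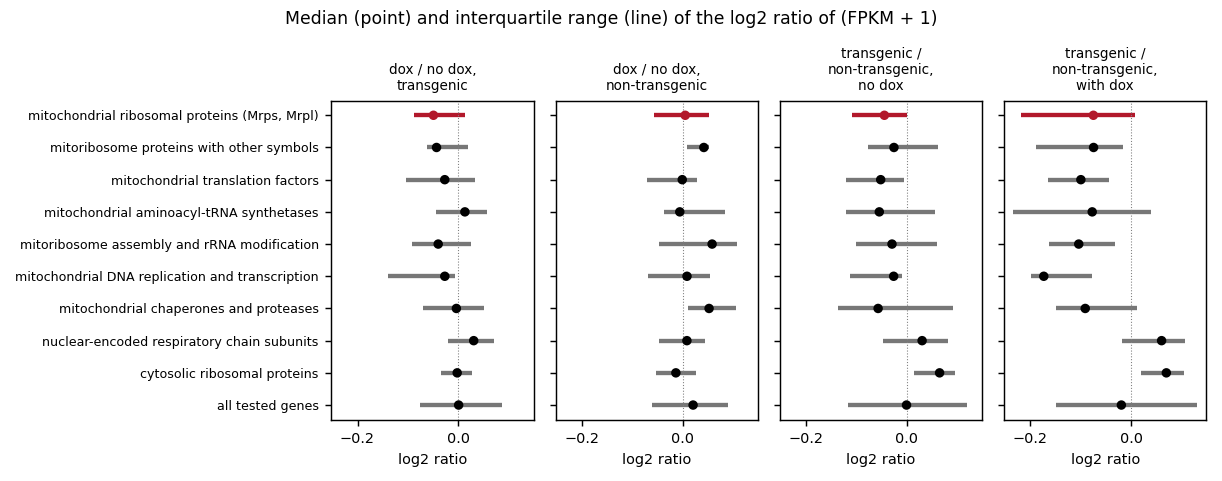
Median (point) and interquartile range (line) of the log2 ratio of (FPKM + 1) for the 76 members (red) and 8 other gene lists, with all tested genes at the bottom, in the 4 comparisons. The lists of mitochondrial gene expression lie slightly below 0 between the clones with doxycycline, and cytosolic ribosomal and respiratory chain genes slightly above.

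Lists related to mitochondrial upkeep and stress were looked at as well. Of 9 genes for mitochondrial DNA replication and transcription and 14 mitochondrial chaperones and proteases, none had an unadjusted p under 0.05 in any of the 4 comparisons. Over all tested genes, 0.108% to 7.9% had one, depending on the comparison. Hspd1, the mitochondrial chaperonin, had 497 and 513 FPKM in the transgenic clone with and without doxycycline, against 548 and 507 FPKM in the non-transgenic clone. Of 13 tested genes of the integrated stress response, which is known to respond to mitochondrial stress, none had an unadjusted p under 0.05 for doxycycline in either clone. On the log2 scale their median ratio was 0.09 in transgenic cells and -0.05 in non-transgenic cells. Ratios within 0.2 of 0 were found for 12 of 13 in transgenic cells (92.3%), against 85.1% of all tested genes. In non-transgenic cells they were found for 9 of 13 (69.2%), against 89.5% of all tested genes. There the ratios ran from -0.63 to 0.15, with 8 below 0, and the smallest p was 0.090 in the authors' deposited table. Chac1, a target of the stress factor Atf4, had 3.48 and 3.67 FPKM in the transgenic clone with and without doxycycline, against 4.83 and 7.77 FPKM in the non-transgenic clone, and its difference between the clones without doxycycline had p = 0.00585 and q = 0.285 in the authors' deposited table.

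The 79 cytosolic ribosomal protein genes and 76 respiratory chain genes had medians on the other side of 0 between the clones. With doxycycline, transgenic over non-transgenic, the median was 0.07 for cytosolic ribosomal proteins with 15 of 79 below 0, and 0.06 for respiratory chain subunits with 24 of 76 below 0, beside -0.07 for the mitochondrial ribosomal protein genes with 54 of 76 below 0. No gene of these lists was called, where at most 1.52% of all tested genes were in any comparison. Whether the medians differ between lists was not tested. In response to doxycycline the cytosolic ribosomal proteins had medians of 0.00 in transgenic cells and -0.01 in non-transgenic cells.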

How the data were processed

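Total RNA of 8 libraries was sequenced as 75 bp single-end reads, per the labels' protocols. TopHat2 2.0.8, Cufflinks 2.1.1 and build mm10 are named per the submitters' processing notes. Annotation, strand and normalization settings were not given in the sources used here. For each gene and group 1 FPKM value was deposited by the authors, with a test statistic (a score), and a p-value and q-value for each of 6 comparisons, of which 4 are used. The deposited q-value equals Benjamini-Hochberg adjustment over 78127 tests of all 6 comparisons, with a largest difference of 5.21e-07. The deposited p-value is never below 5e-05. The deposited fold column holds damaged cells, so ratios were computed from the FPKM values, with a pseudocount of 1 on the log2 scale for counts and medians. All 76 members had a deposited test in each of the 4 comparisons.

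A member was called where the deposited q was under 0.05. Standard errors were the log2 ratio over the deposited test statistic. The difference of responses was tested with a two-sided normal test over 12638 genes with Benjamini-Hochberg adjustment. With values per group only, p-values measure the spread between 2 libraries a group, which may be technical. Deposited locus starts count from 0 and are given from 1. Promoter windows came from RefSeq, and head-to-head genes from deposited loci with GENCODE M21 strands, with starts within 1000 bases and an overlap of up to 200 bases allowed. Python 3.11.15, numpy 2.4.6, pandas 2.3.3, scipy 1.17.1 and matplotlib 3.10.9 were used. Genes named were members called or with p under 0.05, the 4 highest and 4 lowest of each subunit by mean FPKM, the 3 highest and 3 lowest ratios of each comparison, and members with a known role or place. Listed genes were named by the test, by an unadjusted p under 0.05 or as the highest 2 of a list, with Thy1 added. Not every listed gene that met this rule is named. The members and gene lists were chosen with earlier results of these data known. Alternatives tried were other thresholds, pseudocounts, filters, scalings and a wider member list.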

Additional observations from a re-analysis of the deposited data

How the results depend on the processing

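The count of called members stayed at 0 in all 4 comparisons with Benjamini-Hochberg adjustment within each comparison, with a q threshold of 0.1 and with the 7 mitochondrial ribosome proteins of other symbols added. With an unadjusted deposited p under 0.05 it was 0 for doxycycline in either clone, 2 between the clones without doxycycline and 1 with it. The members' median log2 ratio was recomputed with a pseudocount of 0.1 or none, without a filter, from 10 FPKM upwards, centred on all tested genes, rescaled to equal sums and with the added proteins. It ran from -0.05 to -0.04 for doxycycline in the transgenic clone, from -0.02 to 0.01 in the non-transgenic clone, where 3 of 7 alternatives changed its sign, from -0.08 to -0.04 between the clones without doxycycline, and from -0.09 to -0.06 with it. The difference of responses gave 0 members with standard errors taken from the deposited p and 0 at an unadjusted p under 0.05. No paired analysis was possible because the deposited values are 1 per group and no library has its own. For the same reason no library could be left out and depth is unknown. Any spread between the 2 libraries of a group enters only through the deposited statistics.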

Other observations

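The deposited locus of 9 of the 76 members (11.8%) overlapped another gene entry, against 17.0% of the other tested genes. Beside Mrpl41 with Wdr85, Mrps6 with Slc5a3 and Mrpl53 with Ccdc142, these were Mrpl19 with AW146020, Mrpl24 with Rrnad1, Mrpl48 with Rab6a, Mrpl49 with Syvn1, Mrps25 with Nr2c2 and Mrps27 with 6430562O15Rik. The levels of these members are uncertain for that reason, since the strand setting of the counting is not known.

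The members' annotated transcripts, taken as the transcript with the longest coding sequence, had a median length of 1284 bases and a median coding length of 582 bases. Mrpl52, the member with the highest level, has the shortest transcript, 418 bases, and Mrpl17, among the 4 lowest large-subunit genes, has the longest, 7300 bases. Mrpl17 stood at 7.92 and 7.97 FPKM in the transgenic clone with and without doxycycline, against 9.04 and 8.19 FPKM in the non-transgenic clone.

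Of the 79 cytosolic ribosomal protein genes, Rpl39l and Rpl10l, paralogs known for their expression in testis, were the only ones with an unadjusted p under 0.05 in either comparison of the clones. Rpl39l had 5.51 and 5.08 FPKM in the transgenic clone with and without doxycycline, against 11.9 and 10.7 FPKM in the non-transgenic clone, with p = 0.00455 without doxycycline and p = 0.00425 with it in the authors' deposited table. Rpl10l had 7.25 and 8.85 FPKM in the transgenic clone, against 16.8 and 14.4 FPKM in the non-transgenic clone, with p = 0.0398 without doxycycline and p = 0.00165 with it in the authors' deposited table. Neither passed the adjustment, with a smallest q of 0.120 in the authors' deposited table.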
